A study of Mus musculus with 14 samples.

Results

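Newborn mouse retina homozygous for a knockout of the long noncoding RNA Peanut (KO, genotype -/-) was compared with newborn retina heterozygous for it (het, genotype +/-). Both groups were taken at P0, the day of birth, and the comparison used the 8 libraries labelled P0, 4 het and 4 KO, of 14 in the series. Every animal carried at least 1 mutant copy, so the hets were the control group and no wild-type library was used. The labels do not describe the allele, the strain, the litters or whether retinas of several animals were pooled, so the p-values below measure the spread between these libraries. The title of the series names neurogenesis and rod differentiation as its subject.

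At birth the mouse retina is still being built. Multipotent progenitors divide next to the pigment epithelium, and some of their daughters switch on proneural factors, leave the cell cycle and become neurons. Ganglion, horizontal, cone and most amacrine cells form early, while rods, bipolar cells and Müller glia form mainly after birth. Notch and Hedgehog signalling help to keep progenitors dividing and undifferentiated. Bulk RNA gives the sum over all these cells, so fewer cells of a type and less RNA per cell cannot be told apart.

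The libraries held 15028865 to 19833083 reads, and 19337 genes were tested. Levels are given as scaled CPM, reads relative to the size of the library after scaling by the trimmed mean of M-values (TMM), and 3 reads in a library correspond to 0.151 to 0.200 CPM. Retinal genes such as Pax6 and Crx were well above that floor in every library, with Crx at 471, 439, 497 and 417 CPM in het replicates 1 to 4. X- and Y-linked transcripts gave 2 female and 2 male libraries in each genotype. KO replicate 3 was female, so the sexes were uneven where it was left out. The second principal component of all genes (18.5% of the variance) put the female libraries at -25.0 to -5.51 and the male libraries at 7.69 to 20.8. KO replicate 3 stood apart from its group before any gene was tested. The first principal component (35.9% of the variance) put it at -27.6 beside het replicate 4 at -29.4, while KO replicates 1, 2 and 4 lay at 22.7, 29.0 and 29.9. Gene groups and the genes described in full are therefore given with all 8 libraries and without KO replicate 3, a library singled out with earlier results of these data known.

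**Figure D1:**
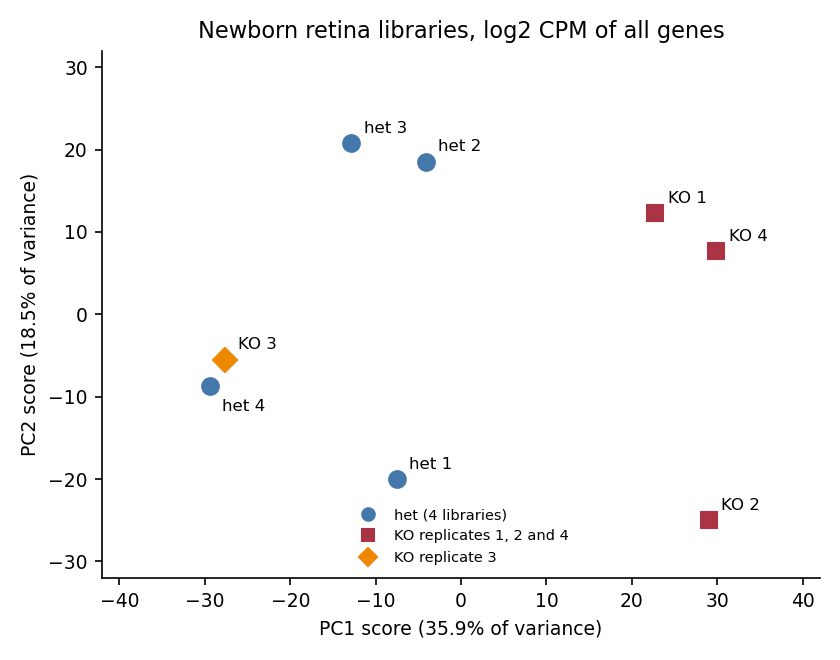
Scores of the 8 newborn libraries on the first and second principal components of log2 CPM over all genes, with 1 point per library. KO replicates 1, 2 and 4 sit between 22.7 and 29.9 on the first component, and KO replicate 3 sits among the hets at -27.6.

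Gm11454 followed the genotype labels in all 8 libraries, KO replicate 3 included. 0 entries of the table carry the name Peanut, and the labels do not state whether Gm11454 is that gene. It is annotated in GENCODE M21 (GRCm38) as a long intergenic noncoding RNA on the plus strand of chromosome 2. Its 3 exons run from 163122606 to 163122778, from 163140836 to 163140970 and from 163143554 to 163143959, and its transcript is 714 bases long. The splice of exon 1 to exon 2 is shown because reads across it would come from the spliced transcript, with 100 bases from each exon, 5′ to 3′, and the 10 bases on either side of the junction in capitals.
Gm11454 exon 1 to exon 2: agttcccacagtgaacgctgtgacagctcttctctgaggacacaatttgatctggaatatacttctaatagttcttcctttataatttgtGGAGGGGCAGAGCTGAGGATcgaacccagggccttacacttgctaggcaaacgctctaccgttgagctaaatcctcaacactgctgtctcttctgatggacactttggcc

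The 4 het libraries held 22, 14, 30 and 31 reads of Gm11454, or 1.46, 0.813, 1.54 and 1.82 CPM, and each KO library held 0. Against a floor of 3 reads per KO library, Gm11454 was at least 7.07-fold lower in KO. The count in KO replicate 3 therefore matched its label, although its overall profile lay with the hets. The genes on either side showed another pattern. Of 14 genes measured in the list of Gm11454 and its neighbours on chromosome 2, 0 besides Gm11454 passed the test on all 8 libraries. When KO replicate 3 was left out, 5 were called lower, Gm11454 included, where 12.6% of all genes were. The count was 6 with an offset for GC content (described below), 3 when het replicate 4, KO replicate 1, KO replicate 2 or KO replicate 4 was left out as well, and 4 without each of the other hets. It was 3 under library totals alone. Over the list the median log2 fold change was -0.046 on 8 libraries and -0.15 without that library. Tox2, an HMG-box factor downstream of Gm11454 (chromosome 2, 163203125 to 163324170), had 215, 220.0, 154 and 229.7 CPM in the hets, 122, 100.2 and 121 in KO replicates 1, 2 and 4, and 249 in KO replicate 3. Its log2 fold change without KO replicate 3 was -0.87 (standard error 0.13, edgeR adjusted p = 0.000580, and -0.46 on 8 libraries), and KO replicate 3 was above every het.

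With all 8 libraries, Gm11454 alone of 19337 genes passed edgeR's quasi-likelihood test at a Benjamini-Hochberg adjusted p under 0.05 (0.00517% called). The adjusted p of Gm11454 was 0.0180 in that edgeR fit, and the call was lost without het replicate 1 (0.132), het replicate 3 (0.122) or het replicate 4 (0.0686), and with a replicate block and GC content offset together (0.179). It was also lost with a filter on low values that left Gm11454 untested. The next smallest adjusted p with all 8 libraries was 0.526, so the genes named below as fallen or risen passed in the fit without KO replicate 3 and not in that with all 8. Without adjustment, 1579 genes (8.17%) had a p under 0.05, 746 of them higher (3.86%) and 833 lower (4.31%) in KO. In 455 genes (2.35%) the groups did not overlap, with KO higher in 272 (1.41%) and lower in 183 (0.946%). The smallest p-values among genes whose mean CPM was at least 2 on the log2 scale included genes of lactate export and glycolysis. Slc16a3, which encodes the lactate exporter MCT4 (chromosome 11, 120948480 to 120960868), held 41.3, 39.5, 45.1 and 39.1 CPM in the hets, 22.8, 19.2 and 20.6 in KO replicates 1, 2 and 4, and 38.3 in KO replicate 3. The groups did not overlap, although KO replicate 3 was close to the lowest het. The log2 fold change of Slc16a3 was -0.71 (standard error 0.18, edgeR adjusted p = 0.526), which did not pass the threshold.

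Pgam1, the glycolytic phosphoglycerate mutase (chromosome 19, 41911923 to 41918660), held 68.6, 61.4, 73.2 and 74.9 CPM in the hets against 38.4, 40.9 and 34.0 in KO replicates 1, 2 and 4. In KO replicate 3 it was at 65.6 CPM, inside the het range, and the 8-library log2 fold change was -0.63 (edgeR adjusted p = 0.526). Tfap2c, an amacrine transcription factor, S1pr3, a receptor for sphingosine 1-phosphate, and Galnt15, a glycosyltransferase, had log2 fold changes in the same fit of -0.66, -0.47 and -0.56, and none of the 3 passed. Ppp1r16b and the nucleoside transporter gene Slc29a3 had log2 fold changes of -0.51 and -0.40 with no overlap between the groups. Ppp1r16b was low in every KO library, KO replicate 3 lowest of all, with 8.11, 9.41, 10.4 and 9.88 CPM in the hets, 7.73, 6.56 and 6.46 in KO replicates 1, 2 and 4, and 5.86 in KO replicate 3. Gm5577, Gm7809 and 1700028K03Rik were higher in all 4 KO libraries than in any het, by 0.38, 0.59 and 0.54 on the log2 scale, and did not pass either. The cone arrestin gene Arr3 was also without overlap, at 5.18, 5.46, 5.10 and 4.94 CPM in the hets, 7.91, 7.02 and 6.66 in KO replicates 1, 2 and 4 and 6.62 in KO replicate 3 (log2 fold change 0.45, edgeR adjusted p = 0.526).

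The same test without KO replicate 3 called 2839 genes (14.7%), 399 higher (2.06%) and 2440 lower (12.6%) in KO. The changes were mostly small, with a median log2 fold change of -0.44 among the lower and 0.42 among the higher genes, and 36 lower and 18 higher genes changed by at least 1. KO replicate 3 lay within or above the het range in 2369 of the 2440 lower genes (97.1%). The balance of directions depended on the scaling: with library totals alone 1156 genes were higher and 1481 lower, and the median of all genes moved from 0.016 to 0.10. The count and the balance also depended on further libraries. Leaving out het replicate 4 as well gave 1319 genes (101 higher, 1218 lower), and KO replicate 2 gave 1182 (83 higher, 1099 lower). KO replicate 4 gave 1654 (88 higher, 1566 lower), and het replicate 1 gave 3185 (1110 higher, 2075 lower).

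Base composition moved with these calls. Among protein-coding genes, the quintile of lowest GC content (median 41.4%) had 208 genes higher and 41 lower, and the quintile of highest GC content (58.1%) had 3 higher and 903 lower. The median log2 fold change ran from 0.16 in the lowest quintile to -0.27 in the highest. The highest quintile minus the lowest, as deviation from the mean of all libraries on the log2(CPM + 1) scale, was -0.11, -0.44 and -0.21 in KO replicates 1, 2 and 4 and 0.23 in KO replicate 3. Het replicates 2, 3 and 4 had 0.21, 0.18 and 0.25, and het replicate 1 had -0.099. The share of reads from the mitochondrial genome set KO replicates 1, 2 and 4 apart from all hets, het replicate 1 included, with 1.28% to 1.67% in the hets, 1.26% in KO replicate 3, and 2.01%, 2.72% and 2.14% in KO replicates 1, 2 and 4. A fit with an offset that removes the trend with GC content in each library called 1976 genes (10.2%), 226 higher (1.17%) and 1750 lower (9.05%), of which 1518 were among the 2839. The part of GC content in the gene groups below was not tested beyond this offset, so counts with it stand beside those of the gene groups.

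**Figure D2:**
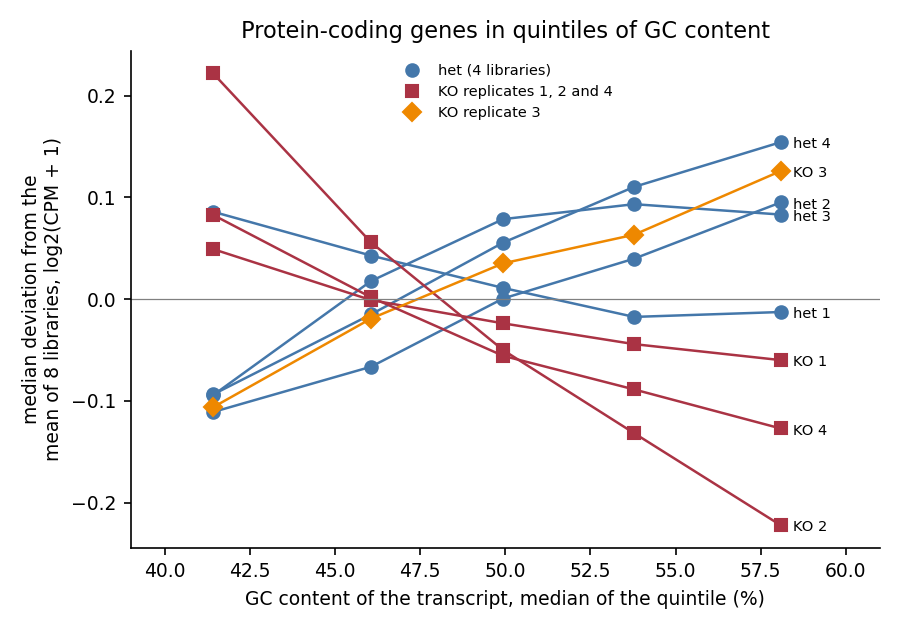
Median deviation of each library from the mean of all 8, on the log2(CPM + 1) scale, for protein-coding genes in quintiles of transcript GC content, with 1 line per library. KO replicates 1, 2 and 4 slope down and KO replicate 3 slopes up with het replicates 2, 3 and 4, while het replicate 1 slopes down.

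Most progenitor genes were lower in KO replicates 1, 2 and 4 and high in KO replicate 3. Of 20 progenitor genes, 13 fell (65%, where 12.6% of all genes and 17.4% of protein-coding genes did) and 0 rose without KO replicate 3, with a median log2 fold change of -0.53 against 0.016 over all genes. With all 8 libraries 0 passed and the median was -0.24. With the GC offset 10 fell, where 9.05% of all genes did, and the median was -0.37. The mean level of the list, as log2(CPM + 1), was 7.05 to 7.30 in the hets, 6.72 to 6.84 in KO replicates 1, 2 and 4, and 7.48 in KO replicate 3. In 11 of the 13 genes KO replicate 3 was above every het, where it was so in 1220 of all 2440 genes called lower.

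Sox9, a factor of progenitors and later of Müller glia (chromosome 11, 112782224 to 112787760), had 58.4, 58.8, 47.5 and 69.5 CPM in the hets, 26.9, 23.0 and 28.8 in KO replicates 1, 2 and 4, and 79.9 in KO replicate 3. The highest of those 3 KO libraries was far below the lowest het, and KO replicate 3 was the highest library of all. The log2 fold change of Sox9 was -1.20 without KO replicate 3 (standard error 0.13, edgeR adjusted p = 0.000116), and -0.56 with it (adjusted p = 0.526). Its relative Sox8 went from 150.1, 169, 154 and 170.2 CPM to 83.6, 90.4 and 95.4 CPM, with 192 CPM in KO replicate 3. Sox8 changed on the log2 scale by -0.88 without that library (standard error 0.084, edgeR adjusted p = 7.10e-05, and -0.48 on 8 libraries).

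Lhx2, a homeobox factor needed for the optic vesicle and for progenitor upkeep, held 175, 208, 179 and 203 CPM in the hets and 123, 121 and 136 CPM in KO replicates 1, 2 and 4. It reached 243 CPM in KO replicate 3, again the highest library, and its log2 fold change without that library was -0.63 (standard error 0.090, edgeR adjusted p = 0.000527, and -0.29 on 8 libraries). The same fit called Ccnd1, the main D-type cyclin of these cells, lower (-0.50, edgeR adjusted p = 0.0159), although over the alternatives its adjusted p ran from 2.11e-05 to 0.164. Not every progenitor gene followed. Pax6, which amacrine and ganglion cells also express, was level across all libraries, at 858, 936, 857 and 919 CPM in the hets, 888, 844 and 907 in KO replicates 1, 2 and 4 and 951 in KO replicate 3. Its log2 fold change was -0.058 (standard error 0.10), and that of Fabp7, a fatty acid binding protein of progenitors, was 0.24 (edgeR adjusted p = 0.267).

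**Figure D3:**
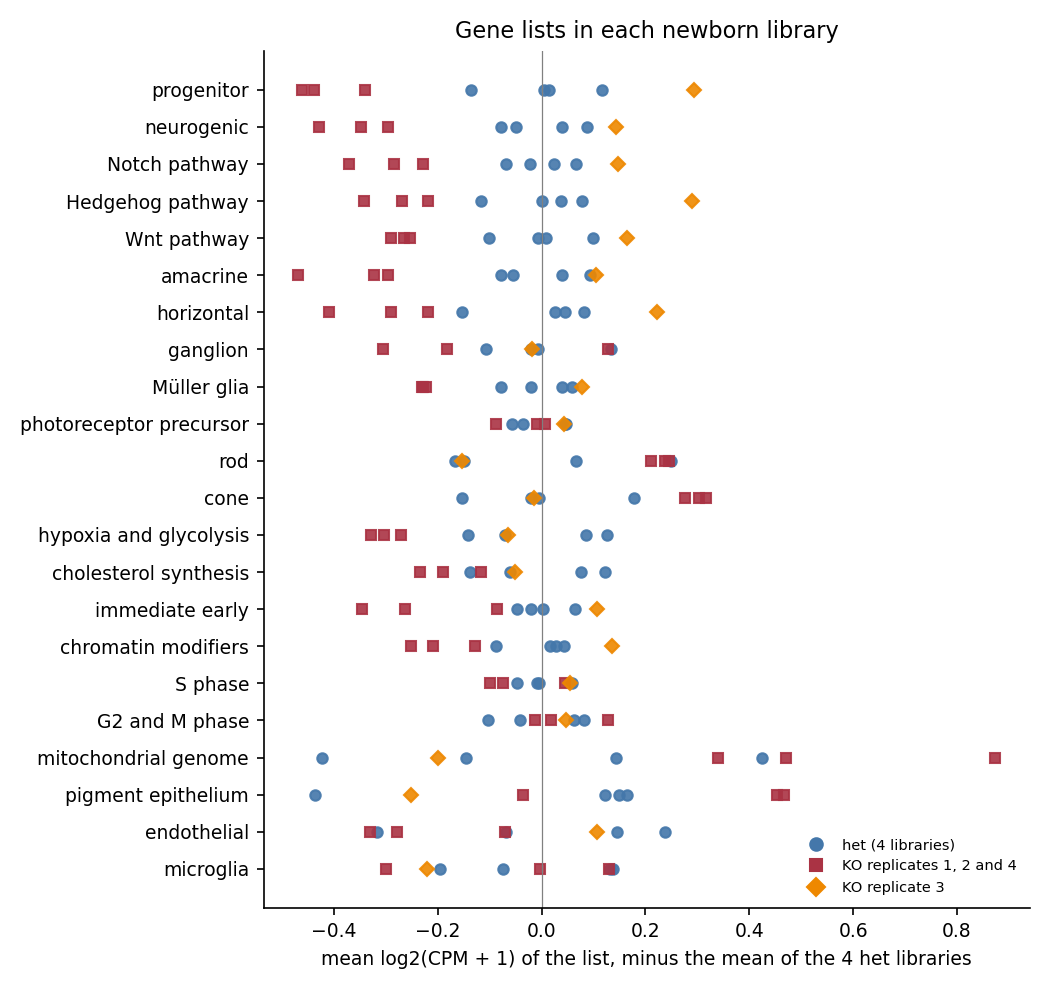
Mean log2(CPM + 1) over each gene list in each of the 8 newborn libraries, after subtraction of the mean of the 4 het libraries for that list. In the progenitor, neurogenic and Notch lists KO replicates 1, 2 and 4 lie left of all hets and KO replicate 3 lies right of them, while in the rod list KO replicates 1, 2 and 4 lie right of 3 hets and left of het replicate 3, and KO replicate 3 lies inside the het range.

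Neurogenic genes mark progenitors on the way to a neuron. Of 18 measured, 12 fell without KO replicate 3 (66.7%, where 12.6% of all genes and 17.4% of protein-coding genes did, median -0.40). With all 8 libraries 0 passed (median -0.23). With the GC offset 4 fell (22.2%, where 9.05% of all genes and 12.5% of protein-coding genes did, median -0.25). Sox4, a SoxC factor of newborn neurons (chromosome 13, 28948919 to 28953713), had 726, 698, 644 and 706 CPM in the hets, 397, 519 and 406 in KO replicates 1, 2 and 4, and 812 in KO replicate 3. KO replicate 3 exceeded the highest het, and the other KO libraries lay below the lowest. The log2 fold change was -0.69 without KO replicate 3 (standard error 0.11, edgeR adjusted p = 0.000930) and -0.38 with it (adjusted p = 0.526). Its relative Sox11 fell by 0.49 without KO replicate 3, and both calls held with the GC offset.

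Dll3, a divergent Notch ligand, fell by 0.51, and with the GC offset was at -0.23 and did not pass (edgeR adjusted p = 0.115, in a range of 0.000181 to 0.124 over the alternatives). Hes6, a target of proneural factors, was called at -0.27 and stood at 0.0100 with the offset, so its direction was not kept. Neurod4, a factor of later precursors, had 406, 318, 312 and 291 CPM in the hets, 381, 474 and 399.8 in KO replicates 1, 2 and 4 and 276 in KO replicate 3. KO replicate 3 was the lowest library and het replicate 1 lay among the other KO libraries, and the difference did not pass (log2 fold change 0.30, edgeR adjusted p = 0.0967, and 0.010 with the GC offset). When a further library was left out, 6 to 11 neurogenic and 9 to 13 progenitor genes were called lower, with the lowest counts without KO replicate 1.

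Notch genes called lower in KO replicates 1, 2 and 4 included ligands, receptors and targets. Of 29 genes, 17 fell (58.6%, where 12.6% of all genes did) without KO replicate 3 and 0 rose (median -0.32). With all 8 libraries 0 fell (median -0.16). With the GC offset 7 fell (24.1%, where 9.05% of all genes did, median -0.22). Leaving out a further library gave 8 (without KO replicate 2) to 14, with 10 without het replicate 2 or het replicate 4 and 11 without KO replicate 1. Library totals alone gave 10. Among ligands, Dll1 had 166, 174, 167 and 170.3 CPM in the hets, 118, 122 and 138 in KO replicates 1, 2 and 4 and 189 in KO replicate 3. The fold change of Dll1 without KO replicate 3 was, on the log2 scale, -0.46 (standard error 0.080, edgeR adjusted p = 0.00159, and -0.25 on 8 libraries), and KO replicate 3 was the highest library.

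Notch1, the receptor that dominates in retinal progenitors, went from 1144, 1249, 1124 and 1323 CPM in the hets to 782, 757 and 987 CPM in KO replicates 1, 2 and 4, with 1477 CPM in KO replicate 3. It fell by 0.56 without KO replicate 3 (standard error 0.13, edgeR adjusted p = 0.00827, and -0.27 on 8 libraries), and the call was lost with the GC offset (-0.36, adjusted p = 0.0559, in a range of 2.22e-05 to 0.120 over the alternatives). Notch2 fell by 0.47 and kept its call there. Of the targets, Hes1, the repressor that holds progenitors undifferentiated, had 55.1, 53, 56.3 and 67.3 CPM in the hets, 38.1, 37.3 and 45.3 in KO replicates 1, 2 and 4, and 79.2 in KO replicate 3. Every KO library other than KO replicate 3 was below every het, and the log2 fold change without that library was -0.56 (standard error 0.11, edgeR adjusted p = 0.00281, and -0.21 on 8 libraries). Heyl, another target, fell by 0.80. Rbpj, the DNA-binding partner of the cleaved receptor, had a log2 fold change of -0.10, and Hey2 of 0.11, and neither passed.

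Of 13 Hedgehog genes measured, 7 fell without KO replicate 3 (53.8%, where 12.6% of all genes did, median -0.42). With all 8 libraries 0 passed (median -0.12), and 5 fell and 1 rose with the GC offset. The co-receptor gene Gas1 had 78.6, 61.3, 66.6 and 77.1 CPM in the hets, 41.9, 50.4 and 43.3 in KO replicates 1, 2 and 4 and 97.0 in KO replicate 3, a log2 fold change of -0.68 without the last (standard error 0.10, edgeR adjusted p = 0.000765, and -0.28 on 8 libraries). The transducer Smo (-0.42), the inhibitor Sufu (-0.50) and the transcription factors Gli2 (-0.52) and Gli3 (-0.48) fell too, so genes that pass the signal on and genes that restrain it were both lower. Of the direct targets, Ptch1 fell by 0.29, whereas Hhip (0.078) did not pass.

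In the Wnt list 11 of 25 fell without KO replicate 3 (44%, where 12.6% of all genes did, median -0.30). With all 8 libraries 0 fell (median -0.14), and 9 did with the GC offset. Leaving out het replicate 4, KO replicate 1 or KO replicate 2 as well gave 6, and het replicate 2 gave 7, as did library totals alone. The secreted inhibitor gene Sfrp2 (-1.02), the feedback inhibitor Nkd1 (-0.60), the repressor Tcf7l1 (-0.77) and the receptor Fzd2 (-0.58) fell. Ctnnb1, which encodes beta-catenin, had a log2 fold change of -0.22 and did not pass (edgeR adjusted p = 0.187). Of 25 genes of the TGF-beta and BMP pathways, 7 fell without KO replicate 3, as did 8 with the GC offset and 0 with all 8 libraries. The 7 are 28% of the list, against 12.6% of all genes and 17.4% of protein-coding genes. The count was 2 when het replicate 4 was left out too, 3 without KO replicate 1 or KO replicate 2 and 4 without KO replicate 4, and library totals alone gave 3. The 7 included Smad3, a signal transducer (-0.54), and the ligand Tgfb2 (-0.48).

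**Figure D4:**
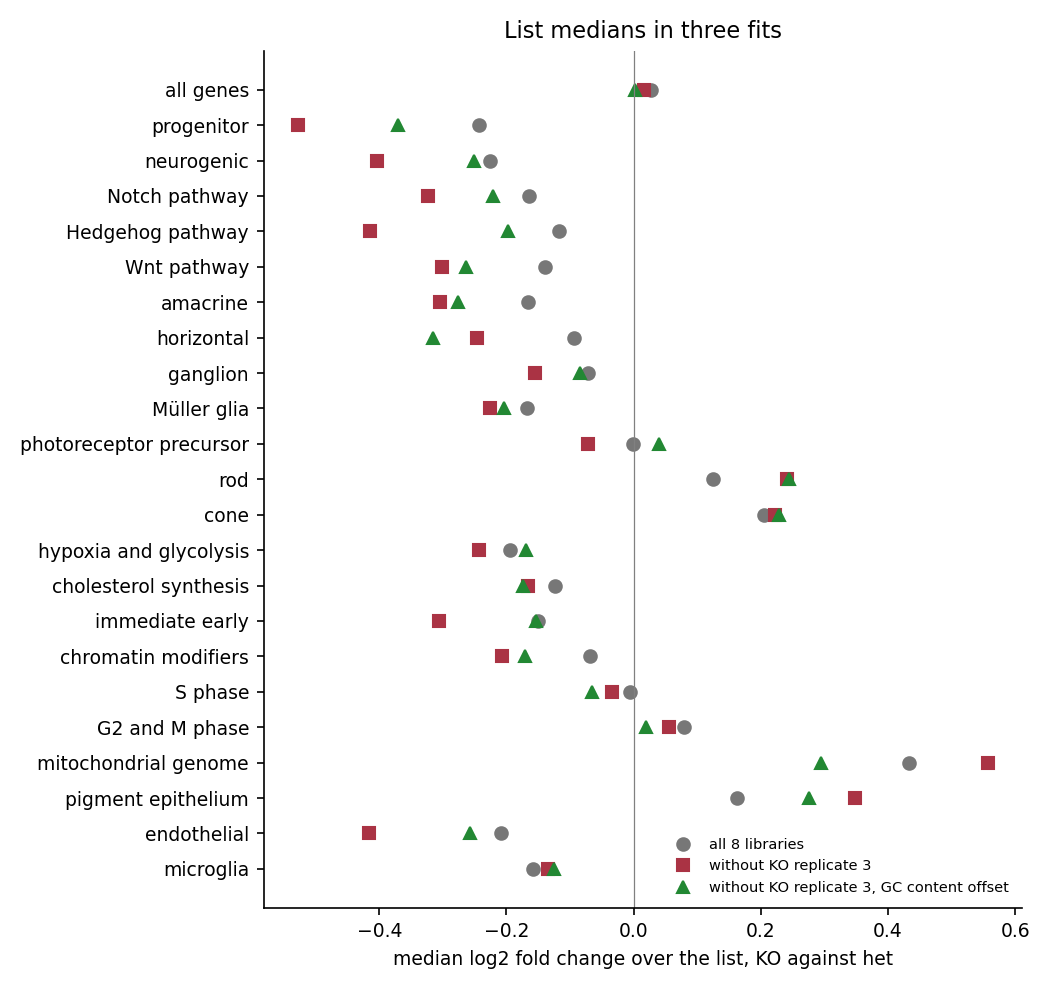
Median log2 fold change (KO against het) over the members of each list, and over all genes, in the fit on 8 libraries, the fit without KO replicate 3, and the latter with a GC content offset. Progenitor, neurogenic and signalling lists lie below 0 in all 3 fits, with the progenitor list at -0.24, -0.53 and -0.37, and the rod and cone lists lie above 0.

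Genes that mark amacrine cells, the inhibitory interneurons of the inner retina, included lower calls for AP-2 factors and for the packaging of GABA and glycine in KO replicates 1, 2 and 4. Without KO replicate 3, 7 of 17 amacrine genes fell (41.2%, where 12.6% of all genes did, median -0.30). As many fell with the GC offset (median -0.28), and 0 passed with all 8 libraries (median -0.17). Slc32a1, the vesicular transporter for both transmitters, was nearly constant in the hets at 20.1, 20.2, 19.9 and 19.9 CPM. It was at 9.83, 8.71 and 9.96 CPM in KO replicates 1, 2 and 4 and at 26.3 CPM in KO replicate 3, above every het. The log2 fold change was -1.11 without KO replicate 3 (standard error 0.11, edgeR adjusted p = 7.10e-05) and -0.54 with it (adjusted p = 0.526).

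Tfap2a, an AP-2 factor of amacrine and horizontal cells, went from 88.1, 107, 83.8 and 99.0 CPM in the hets to 51.1, 39.8 and 54.0 CPM in KO replicates 1, 2 and 4, with 116 CPM in KO replicate 3. It fell by 1.01 without that library (standard error 0.12, edgeR adjusted p = 0.000205, and -0.53 on 8 libraries). For Tfap2b and Tfap2c, the log2 fold changes were -0.81 and -0.94, and in these KO replicate 3 stayed inside the het range, at 309 and 14.7 CPM. Markers of cholinergic and glycinergic subtypes did not follow the AP-2 genes. Chat, the acetylcholine-synthesising enzyme of starburst cells, had a log2 fold change of 0.018, the glycine transporter gene Slc6a9 of 0.013 and the calcium-binding protein gene Calb2 of -0.083, and none of the 3 passed.

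Of 7 horizontal cell genes, 3 fell (42.9%, where 12.6% of all genes did) without KO replicate 3. Among them were Lhx1, the factor that positions these cells (-1.07), and Onecut3 (-0.79). As many were called under the GC offset and 0 with all 8 libraries. Onecut1 and Onecut2, which specify horizontal cells, had log2 fold changes of -0.049 and -0.0029 and did not pass. Of 19 ganglion cell genes, 2 fell (10.5%, below the 12.6% of all genes, median -0.15), Klf7 at -0.27 among them, 3 with the GC offset and 0 with all 8 libraries. That count was 5 when KO replicate 1 was left out too, 2 without het replicate 3, and 0 without any other library or under library totals alone. Pou4f1 and Isl1, their better known transcription factors, stood at -0.33 and 0.100 without passing. Nefm, a neurofilament subunit, was uneven among KO replicates 1, 2 and 4, with 112, 54.6 and 63.3 CPM against 104, 104, 103 and 129 CPM in the hets.

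In the Müller glia list, much of which progenitors share, 5 of 13 fell without KO replicate 3 (38.5%, where 12.6% of all genes did). The median was -0.23, and 6 fell with the GC offset, against 0 with all 8 libraries. The 5 became 3 when KO replicate 2 was left out too. Glul, glutamine synthetase, had 378, 378, 395 and 453 CPM in the hets, 250.1, 262 and 257 in KO replicates 1, 2 and 4, and 495 in KO replicate 3. On the log2 scale Glul changed by -0.68 without the last library (standard error 0.090, edgeR adjusted p = 0.000338, and -0.34 on 8 libraries), and again KO replicate 3 was the highest of the 8. Nuclear factor I genes Nfia and Nfix, which act in late progenitors, fell, with log2 fold changes of -0.39 and -0.71. Slc1a3, the glial glutamate transporter, was at -0.13 and did not pass.

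The rod and cone lists had medians above 0. Of 22 rod genes, 3 rose (13.6%, where 2.06% of all genes did) and 1 fell (4.55%, where 12.6% did) without KO replicate 3. The median was 0.24, and 0 passed with all 8 libraries (median 0.12). With the GC offset 3 rose, where 1.17% of all genes did, and 1 fell (median 0.24). With 1 further library left out, 11 rose without het replicate 3, 2 without het replicate 2, het replicate 4, KO replicate 2 or KO replicate 4, and 7 rose under library totals alone. Rp1, a microtubule protein of the outer segment, had 199, 128, 168 and 147 CPM in the hets, 220.5, 264 and 243 in KO replicates 1, 2 and 4, and 141 in KO replicate 3. Those 3 libraries were above every het, with KO replicate 3 in the het range and het replicate 1 closest to KO. The log2 fold change of Rp1 was 0.56 without KO replicate 3 (standard error 0.12, edgeR adjusted p = 0.00537, and 0.44 on 8 libraries), and its call was lost with the GC offset (adjusted p = 0.0697, in a range of 7.47e-05 to 0.0697 over the alternatives). Sag, rod arrestin, rose by 0.44 and kept its call with the offset (0.48). Pdc, the phosducin that binds transducin, rose by 0.43 and did not keep it (0.13, edgeR adjusted p = 0.547, in a range of 0.000870 to 0.547). Gnat1, rod transducin, was low, with 2.39, 3.02, 5.00 and 3.00 CPM in the hets and 2.60, 1.95 and 2.52 in KO replicates 1, 2 and 4. It did not pass (-0.57, edgeR adjusted p = 0.154, and -0.50 on 8 libraries). The rod gene that fell was Gnb1, a G protein subunit that many neurons use (-0.39).

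Of 12 genes that mark photoreceptor precursors or place cells on that path, 2 fell without KO replicate 3 (16.7%, where 12.6% of all genes and 17.4% of protein-coding genes did), Esrrb (-0.99) and Neurod1 (-0.28), and the list median was -0.072, or 0.040 with the GC offset (2 lower, 1 higher). Without each further library other than het replicate 3, 1 gene fell, as under library totals alone, and with all 8 libraries 0 passed. Otx2, the factor that commits cells to this fate, held 412, 387, 431 and 329 CPM in the hets, 351, 396 and 397 in KO replicates 1, 2 and 4, and 409.6 in KO replicate 3. These values overlapped throughout, and the log2 fold change was -0.068 (standard error 0.10). Crx (0.13), the rod factor Nrl (0.19) and its partner Nr2e3 (0.19) did not pass either. With the GC offset Nr2e3 was called (0.33, edgeR adjusted p = 0.0335, in a range of 0.00777 to 0.398 over the alternatives).

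Cone genes had a median log2 fold change of 0.22 without KO replicate 3 and 0.21 with it, against 0.016 and 0.028 over all genes. Cngb3, a subunit of the cone channel, rose by 0.46 (standard error 0.11, edgeR adjusted p = 0.00981, and 0.37 on 8 libraries), the only call among 11 genes in that fit, while 4 were called with the GC offset and 0 with all 8 libraries. The count was 4 without het replicate 3 and 0 without KO replicate 2 or KO replicate 4, and library totals alone gave 5. The 1 call is 9.09% of the list, where 2.06% of all genes rose. The 4 with the GC offset are 36.4%, where 1.17% did. Opn1sw, the short-wavelength opsin, had 110.4, 118, 136 and 126 CPM in the hets, 151, 157 and 134 in KO replicates 1, 2 and 4, and 133 in KO replicate 3. KO replicates 3 and 4 lay inside the het range, and the difference did not pass (0.22, edgeR adjusted p = 0.105).

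Among genes that respond to low oxygen or act in glycolysis, some were called lower in KO replicates 1, 2 and 4, and in most of these KO replicate 3 lay among the hets. Without KO replicate 3, 14 of 39 fell (35.9%, where 12.6% of all genes did, median -0.24), and 13 with the GC offset (median -0.17). With all 8 libraries 0 passed, but 14 of the 39 had an unadjusted p under 0.05 in the lower direction, where 4.31% of all genes did, and the median was -0.19. Among the 14 genes, KO replicate 3 was above every het in 3, inside their range in 8 and below every het in 3. Over all 2440 genes called lower without it, the counts were 1220, 1149 and 71.

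Ndufa4l2, a hypoxia-induced mitochondrial protein gene (chromosome 10, 127514967 to 127517154), had 51.8, 37.4, 39.9 and 101 CPM in the hets, 13.7, 17.2 and 16.5 in KO replicates 1, 2 and 4, and 49.5 in KO replicate 3. Those 3 KO libraries lay close together, het replicate 4 was far above the other hets, and KO replicate 3 lay in the het range. Its log2 fold change was -1.90 without KO replicate 3 (standard error 0.28, edgeR adjusted p = 0.000580, and -1.24 on 8 libraries), the largest fall in that fit among well expressed genes without overlap. For Slc16a3 and Pgam1 the same fit gave -1.02 (standard error 0.10, edgeR adjusted p = 7.10e-05) and -0.92 (standard error 0.098, edgeR adjusted p = 0.000116).

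Hk2, the inducible hexokinase, went from 24.3, 20.8, 26.3 and 31.2 CPM in the hets to 11.8, 12.2 and 12.3 CPM in KO replicates 1, 2 and 4, with 31.5 CPM in KO replicate 3, and fell by 1.12 without that library (log2 fold change -0.59 with it). Egln1, an oxygen sensor that marks HIF proteins for removal and is itself a HIF target, fell by 0.77. The most abundant glycolytic enzymes did not pass. Gapdh was at -0.14, Ldha at -0.061, Eno1 at -0.26 and Pkm at -0.39, with het replicate 3 the highest library in each of the 4. Of hypoxia targets outside glycolysis, Kdm3a (0.030), Bnip3l (0.086) and Ankrd37 (0.048) did not pass, unlike Ndufa4l2 and Egln1.

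**Figure D5:**
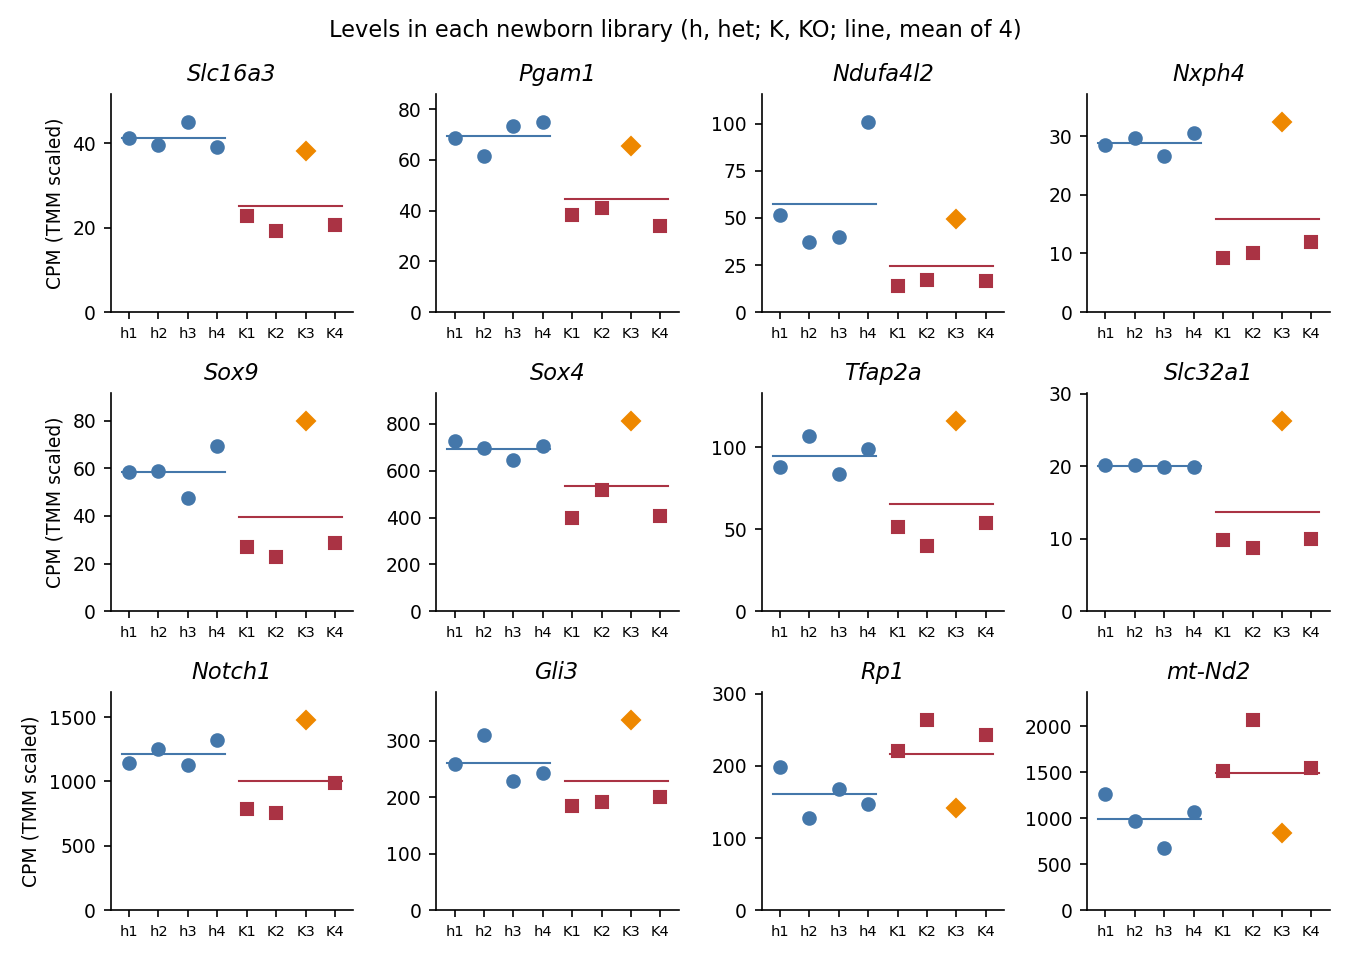
Scaled CPM of 12 genes in each newborn library, with a line at the mean of the 4 libraries of each genotype. In Slc16a3 all KO libraries lie below the hets, in the other 9 genes with lower KO means KO replicate 3 (diamond) lies among or above the hets, and in Rp1 and mt-Nd2 it lies among them.

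Cholesterol synthesis genes were lower for 7 of 22 members without KO replicate 3 (31.8%, where 12.6% of all genes were, median -0.17). As many were lower with the GC offset, and leaving out KO replicate 1 as well as KO replicate 3 gave 4. With all 8 libraries 0 passed. There 6 had an unadjusted p under 0.05 in the lower direction, where 4.31% of all genes did. Srebf2, the transcription factor that drives the pathway, had 380.3, 429.9, 368 and 443 CPM in the hets, 243, 222 and 254 in KO replicates 1, 2 and 4, and 466 in KO replicate 3 (log2 fold change -0.79 without the last, standard error 0.097, edgeR adjusted p = 0.000243, and -0.45 on 8 libraries). Dhcr7, an enzyme of the last steps of the pathway, fell (-0.74), as did the mevalonate enzyme gene Mvd (-0.59). The synthesis genes Hmgcs1 (-0.18) and Cyp51 (0.045) did not pass.

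Cell cycle genes did not move as a block. Of 44 S phase genes 11 fell and 2 rose without KO replicate 3, and of 50 G2 and M phase genes 8 fell and 4 rose. The shares lower were 25% and 16%, against 12.6% of all genes and 17.4% of protein-coding genes. The medians were -0.034 and 0.055, near that of all genes, and that of the S phase list was 0.052 under library totals alone, where the median of all genes was 0.10. With all 8 libraries 0 passed in either list. The GC offset gave 11 lower and 0 higher in S phase and 9 lower and 1 higher in G2 and M phase, and library totals alone turned the latter to 7 lower and 11 higher. When a further library was left out, 0 to 5 S phase and 1 to 10 G2 and M phase genes were called higher, most without het replicate 1, and S phase had 7 lower without KO replicate 1. Mki67, the proliferation antigen, had 1711, 1418, 1603 and 1384 CPM in the hets, 1541, 1770.3 and 1582 in KO replicates 1, 2 and 4, and 1566 in KO replicate 3. The libraries overlapped fully, with a log2 fold change of 0.056 (standard error 0.13). Pcna (0.13) and Top2a (0.23) did not pass either.

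The replicative helicase genes Mcm2 (-0.59) and Mcm3 (-0.54), the ribonucleotide reductase subunit Rrm2 (-0.64), the methylation factor Uhrf1 (-0.65) and the mitotic kinase Aurkb (-0.55) fell, and all 5 kept the call with the GC offset. The kinetochore and spindle genes Cenpe (0.36), Nuf2 (0.38) and Kif20b (0.49) rose, and Kif20b alone of these 3 kept it (0.25). H2ax, the histone variant phosphorylated at DNA breaks, went from 73.5, 81.5, 78.4 and 89.7 CPM to 38.4, 40.0 and 38.1 CPM, with 103 CPM in KO replicate 3, and fell by 1.09 without that library (standard error 0.091, edgeR adjusted p = 4.16e-05, and -0.55 on 8 libraries). Of 37 chromatin modifier genes, 15 fell (40.5%, where 12.6% of all genes and 17.4% of protein-coding genes did) and 0 rose. Among the 15 were the remodelling ATPases Chd4 (-0.67) and Smarca4 (-0.61), Arid1a (-0.66) and the maintenance methyltransferase Dnmt1 (-0.67). With the GC offset 13 of the 37 fell, and with all 8 libraries 0. Without KO replicate 2 as well 7 did, and without het replicate 4 or KO replicate 1 as well 8 did.

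Among immediate early genes 7 of 21 fell without KO replicate 3 (33.3%, where 12.6% of all genes did, median -0.31). With the GC offset 6 fell and 1 rose (median -0.15), and 0 passed with all 8 libraries. Jun, a subunit of the AP-1 factor, held 72.3, 73.9, 64.4 and 74.8 CPM in the hets, 33.9, 27.9 and 34.8 in KO replicates 1, 2 and 4, and 92.4 in KO replicate 3, the highest of all. Jun had a log2 fold change of -1.19 without that library (standard error 0.10, edgeR adjusted p = 4.16e-05, and -0.59 on 8 libraries), and Jund (-0.67), Ier2 (-0.77) and Ier5 (-0.63) fell too. The activity-dependent genes Npas4 (0.23), Nr4a1 (0.21) and Egr2 (0.61) were not called.

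The largest falls without KO replicate 3, among well expressed genes without overlap, also held genes from none of these pathways. Nxph4, a secreted ligand of neurexins (chromosome 10, 127525473 to 127534559), had 28.5, 29.6, 26.5 and 30.6 CPM in the hets, 9.27, 10.1 and 12.0 in KO replicates 1, 2 and 4, and 32.4 in KO replicate 3, again the highest library. Its log2 fold change was -1.50 (standard error 0.11, edgeR adjusted p = 2.50e-05) without KO replicate 3 and -0.85 with it (adjusted p = 0.526). The homeobox gene Dlx2 (-1.38), the SoxB1 factor Sox3 (-1.37), the synaptic organiser C1ql2 (-1.18), the glutamate receptor gene Grm2 (-1.15) and the zinc finger factor Zfp503 (-1.07) followed, and KO replicate 3 was above every het in each of the 5. On all 8 libraries Dlx2 was at -0.60, Sox3 at -0.56, C1ql2 at -0.56, Grm2 at -0.60 and Zfp503 at -0.54. All 12 genes with the largest falls kept their call with the GC offset.

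By the same choice of well expressed genes without overlap, Gm and Rik names left out, the largest rises included mitochondrial and small RNA genes. mt-Nd2, a complex I subunit of the mitochondrial genome, had 1267, 970.5, 675 and 1065 CPM in the hets, 1510.2, 2066 and 1540.5 in KO replicates 1, 2 and 4, and 842 in KO replicate 3 (log2 fold change 0.74 without the last, standard error 0.18, edgeR adjusted p = 0.0120, and 0.58 on 8 libraries). Of 15 genes of the mitochondrial genome, which has a low GC content (median 37.1%), 0 rose with the GC offset and 0 with all 8 libraries. Without KO replicate 3, 7 rose (46.7%, where 2.06% of all genes did). That count was 13 when het replicate 1 was left out too and 0 without KO replicate 2. It was 3 without het replicate 2, 4 without KO replicate 4 and 11 under library totals alone. Scarna6 (0.72), a Cajal body RNA, and Snord118 (0.70), the U8 RNA of ribosome processing, rose and kept their calls with the offset. Slitrk6, a neuronal membrane protein gene (0.65), and Zfp85 (0.64) rose and did not (0.40 and 0.36). How reads common to Zfp85 and its near-identical relatives were assigned is not given in the sources used here.

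Markers of cells outside the neural retina were examined beside these results. Microglial genes had 0 of 13 lower and 0 higher without KO replicate 3, astrocyte genes 0 of 8 and pigment epithelium genes 0 of 13 in either direction, and all 3 had 0 with all 8 libraries. Under the GC offset 1 pigment epithelium gene was called higher, and 2 were without het replicate 2 or KO replicate 4. The mean log2(CPM + 1) of the pigment epithelium list was 3.03 to 3.63 in the hets, 3.43 to 3.93 in KO replicates 1, 2 and 4 and 3.21 in KO replicate 3. For the endothelial list it was 1.92 to 2.48, 1.91 to 2.17 and 2.34, and 2 of 13 genes fell without KO replicate 3, Kdr (-0.44), which progenitors also express, and Cldn5 (-0.52), 15.4% of the list where 12.6% of all genes were lower. That count was 1 with the GC offset, under library totals alone, or without het replicate 3, het replicate 4, KO replicate 2 or KO replicate 4, and 0 without KO replicate 1. Lens crystallins were high in KO replicate 2. Cryaa had 6.05, 11.8, 8.19 and 11.4 CPM in the hets, 12.4, 48.3 and 9.89 in KO replicates 1, 2 and 4 and 11.0 in KO replicate 3, and its call (1.30, edgeR adjusted p = 0.0432) rested on groups that overlap. The part of lens, vessel or pigment epithelium tissue in the retinal results was not tested.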

How the data were processed

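RNA was measured by sequencing in 8 P0 retina libraries, grouped by the genotype in their titles. The labels' protocols describe removal of ribosomal RNA, fragmentation and random priming. Per the submitters' processing notes, the tools were Trim Galore, STAR, HTSeq and edgeR with mm10. Versions, annotation and strand setting are not given in the sources used here. The deposited read counts per gene are whole numbers, 1 column per library, not normalized, per the file headers. The deposited CPM are the authors' scaling to library size, and count divided by CPM gave the library totals used here. The table's genes held 99.6% to 99.7% of those totals, and the authors' own fold changes and p-values were not used.

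Genotypes were compared in R 4.3.3 with edgeR 4.0.16 (filterByExpr, which removed no gene, TMM scaling, glmQLFit and glmQLFTest, Benjamini-Hochberg adjustment, threshold 0.05) on all 8 libraries and without KO replicate 3. The standard errors given are the absolute log2 fold change divided by the square root of the quasi-likelihood F value. Alternatives were DESeq2 1.42.0 (Wald test and size factors), library totals alone, the summed table as total, limma 3.58.1 voom with and without sample weights, filters, a GC or length offset (loess of span 0.4 per library), sex, a replicate block and each library left out. GC content, biotypes and coordinates came from GENCODE M21 (GRCm38), which matched 97.1% of identifiers with their version. The test was checked on simulated counts. The floor of 3 reads per library served as a reference for low levels and to bound the fold change of Gm11454. It is not an estimate of counting error, and reads carry no molecular identifiers.

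The 49 gene lists, their members and KO replicate 3 as the library left out were chosen with earlier results of these data known. List levels are means of log2(CPM + 1), and where a symbol had 2 rows the one with more reads was kept. Named genes are those called on 8 libraries and the 10 smallest p-values there with a log2 of the mean CPM of at least 2. To these were added the 12 largest rises and falls without KO replicate 3 among symbols other than Gm and Rik names. Those had to be called, at the same level and without overlap. From each list came the 4 highest members and up to 4 of smallest p in each direction. Arr3 came from its list. Some list members counted here are not reported by name.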

Additional observations from a re-analysis of the deposited data

Results flagged for a closer look

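In each group of 4 libraries, the gap between the highest or lowest library and its nearest neighbour was divided by the range of the group. Values above Dixon's critical value for 4 samples were taken as a library apart from the rest. Chance gives this in about 1 in 20 groups. It occurred in 15 of 180 sets of 4, and KO replicate 3 was the far library in 13 of the 15. These sets share genes, so their number is not read against that rate. Most of the single genes were named for a large change in the fit without KO replicate 3, so their choice alone can place that library apart.

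For KO replicate 3 the value was 0.875 on the first principal component, where it was the lowest KO library. It was the highest KO library in the progenitor (0.839), Müller glia (0.972) and Wnt (0.922) lists, and the lowest in the rod (0.914) and cone (0.878) lists. Single genes with KO replicate 3 far above the other KO libraries were Hk2 (0.956), H2ax (0.952), Galnt15 (0.928), Dlx2 (0.892), C1ql2 (0.888), Slc32a1 (0.883) and Sox3 (0.869). Among the hets, replicate 1 lay far below the others in the pigment epithelium list (0.929) and in the red blood cell list (0.838).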

How the results depend on the processing

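On all 8 libraries 1 gene was called in most alternatives, 0 with a filter of at least 1 CPM in at least 4 libraries, and 0 with the replicate block and GC content offset together. Limma-voom with sample weights, which gave KO replicate 3 a weight of 0.234, called 2150 (476 higher, 1674 lower), and leaving out 1 library gave 0 to 2839, the highest without KO replicate 3. Without KO replicate 3 the count was 2839, and leaving out a further library gave 1182 (without KO replicate 2) to 3185 (without het replicate 1, 1110 higher and 2075 lower). It was 54 when genes also had to change by 1 or more on the log2 scale and 1767 with the replicate block and GC content offset. Same-numbered libraries had a mean correlation of deviations of -0.155. Each same-numbered pair joined a female to a male library, so this value cannot tell whether the numbers pair them. The replicate block alone gave 1 call on 8 libraries and 2118 (221 higher, 1897 lower) on 7. With sex as a covariate the counts were 1 on 8 libraries and 3072 (584 higher, 2488 lower) on 7. Without KO replicate 3, Hes6 turned from lower to higher with the GC content offset (0.010) and with the replicate block and GC content offset (0.049). Snhg14 turned from higher to lower under the same settings (-0.18 and -0.054), and the cause was not tested. No other named gene changed direction between settings where it was called in at least 1 of the pair compared, whereas genes near 0 that passed in neither could change sign, such as Pax6 with library totals alone. Over the named genes and alternatives of the fit without KO replicate 3, a call was lost 408 times, most often without KO replicate 2, and gained 321 times, against 4 and 334 times with all 8 libraries. At these depths, genes near 3 reads per library cannot show a change.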

Other observations

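Axon guidance genes had a mean level, as log2(CPM + 1), of 6.17 to 6.30 in KO replicates 1, 2 and 4, below the 6.37 to 6.53 of the hets, with 6.52 in KO replicate 3. Without KO replicate 3, 12 of 29 axon guidance genes fell (41.4%, where 12.6% of all genes did) and 0 rose (median -0.20), 7 fell and 1 rose with the GC offset, 0 passed with all 8 libraries, and 6 fell when het replicate 4 or KO replicate 2 was left out too, or 7 without het replicate 2. Efnb1, a membrane-bound ephrin, had 52.7, 36.5, 41.9 and 56.4 CPM in the hets, 26.5, 19.7 and 28.6 in KO replicates 1, 2 and 4, and 44.2 in KO replicate 3. Its log2 fold change without that library was -0.95 (standard error 0.16, edgeR adjusted p = 0.00115, and -0.65 on 8 libraries). The Slit receptor Robo1 (-0.51) and the Eph receptor Ephb2 (-0.57) fell too, while Robo2 (-0.075) and the netrin receptor Unc5c (0.11) did not pass. Of 36 synaptic genes 9 fell (median -0.20), among them Nrxn2 (-0.71) and the active zone scaffold Bsn (-0.62), with 8 under the GC offset and 0 with all 8 libraries. The 9 are 25% of the list, against 12.6% of all genes and 17.4% of protein-coding genes. That count was 5 without het replicate 4, KO replicate 2 or KO replicate 4 as well, and 12 without KO replicate 1. The mean level of the synaptic list in KO replicate 1 lay inside the het range. Snap25, a core fusion protein, was at 0.22 and did not pass.

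Slc2a1, the glucose transporter GLUT1, had 319, 356, 332 and 461 CPM in the hets, 220.3, 227 and 233 in KO replicates 1, 2 and 4, and 377 in KO replicate 3 (log2 fold change -0.73 without the last, standard error 0.12, edgeR adjusted p = 0.000930, and -0.47 on 8 libraries). Of 266 solute carrier genes 45 fell and 1 rose without KO replicate 3, so 16.9% were lower, against 12.6% of all genes and 17.4% of protein-coding genes. With the GC offset 31 fell and 3 rose, and 21 fell without KO replicate 2 as well, 24 without het replicate 4 and 28 without KO replicate 4. The chaperone gene Hsp90ab1 fell (-0.63), while Hsp90aa1 (0.33) and Hspa8 (0.0094) did not pass. Ribosomal protein genes had 1 of 81 lower (1.23%, where 12.6% of all genes were) and 0 higher, with a median of 0.14. Nuclear respiratory chain genes had 3 of 82 lower (3.66%) and 1 higher (1.22%, where 2.06% of all genes were), with a median of 0.061. Under the GC offset the counts were 1 lower and 1 higher, and 2 lower and 2 higher. When het replicate 3 was left out too, 7 ribosomal protein and 15 respiratory chain genes were called higher. Library totals alone gave 3 ribosomal protein genes higher and 1 lower, and 8 respiratory chain genes higher and 2 lower, and lower calls among the latter came to 1 without het replicate 4, KO replicate 1 or KO replicate 4. With all 8 libraries 0 genes of the ribosomal protein, respiratory chain and solute carrier lists passed.

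Of 1631 genes annotated as awaiting experimental evidence (TEC), 72 rose and 2 fell without KO replicate 3, with a median of 0.28, and 6 rose and 1 fell with the GC offset. The share called higher was 4.41%, where 2.06% of all genes were, and 0.368% with the GC offset, where 1.17% were. Library totals alone gave 166 higher, and 42 in the antisense class. Of 1138 antisense genes 19 rose (1.67%) and 0 fell, with a median of 0.21, and 27 rose (2.37%) and 2 fell with the GC offset, so the share was below that of all genes in the first fit and above it in the second. Of 89 small nuclear RNA genes 6 rose (6.74%) and 0 fell, with a median of 0.48, and 2 rose with the GC offset. In these 3 classes 0 passed with all 8 libraries. The share of reads in TEC and sense-intronic genes was 0.987% to 1.32% in the hets, 1.41% to 1.5% in KO replicates 1, 2 and 4, and 1.04% in KO replicate 3, and its part in these counts was not tested. Antisense reads cannot be told apart from those of the opposite gene where counting ignores strand.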
